A study of Homo sapiens with 6 samples.

Results

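The COPII coat was examined through the mRNAs of 10 of its subunit genes, out of 8196 genes listed with a site in any library of a CLIP study of AEG-1. These 10, called the coat below, are SAR1A, SAR1B, SEC23A, SEC23B, SEC24A, SEC24B, SEC24C, SEC24D, SEC13 and SEC31A. A row of a site list was taken as a COPII site when its gene symbol was 1 of these 10, which gave 152 of 72385 sites. AEG-1, encoded by MTDH, is a protein of the endoplasmic reticulum (ER) membrane. CLIP bonds RNA to protein with UV light, precipitates the protein and sequences the RNA fragments that stay attached. The cell line AEG-1-14 was made in HepG3 cells, labelled as hepatoblastoma, and carries AEG1 with an HA tag at the C-terminus, so every library, controls included, came from cells that express the tagged protein. There were 2 HITS-CLIP AEG1 libraries (UV at 254 nm), 2 HITS-CLIP controls without UV, 1 PAR-CLIP AEG1 library (UV at 365 nm) and 1 PAR-CLIP control without UV. All came from 1 stably expressing line. The labels do not tell whether the HITS-CLIP replicates were grown separately, so differences between them may be technical. The p-value below compares only these libraries. It takes its smallest possible value whenever the 2 groups do not overlap, whatever their spread.

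COPII is the coat that buds cargo vesicles from the ER towards the Golgi. The small GTPase SAR1 inserts into the ER membrane and recruits SEC23 with SEC24, the inner layer, and SEC24 binds the sorting signals of cargo. SEC13 and SEC31 then form the outer cage. All of these proteins are made in the cytosol without a signal sequence and act on the cytosolic face of the ER, whereas the cargo and its receptors are made on ER-bound ribosomes. The liver secretes large amounts of plasma protein and lipoprotein through this route.

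Each library was deposited as a list of called sites with positions on RefSeq mRNAs and a log2 score, without read counts, and how deeply each was sequenced is not known. The lists held 6378 and 5651 sites in HITS-CLIP AEG1, 60 and 90 in its controls, 60085 in PAR-CLIP AEG1 and 121 in its control. As a check of the cell label, all 8 hepatic markers, among them ALB, AFP and APOB, had sites in both HITS-CLIP AEG1 replicates and in PAR-CLIP AEG1. ALB had 5 and 10 sites in HITS-CLIP AEG1 against 11 and 9 in its controls, and 3 in PAR-CLIP AEG1 against 13 in its control. SERPINA1 and APOB also had control sites. Of 8 markers of blood, endothelial or connective tissue, 1 (CD68) had sites in both HITS-CLIP AEG1 replicates and 2 (CD14 and CD68) in PAR-CLIP AEG1, and PTPRC, CD3E, PECAM1, VWF, COL1A1 and COL3A1 had none in any library. The part of CD14 and CD68 expression in the COPII values was not tested.

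COPII mRNAs were covered widely in PAR-CLIP AEG1 and thinly in HITS-CLIP AEG1, and no control held a site on any of them. PAR-CLIP AEG1 listed 143 sites, on all 10 mRNAs, against 0 in its control. HITS-CLIP AEG1 listed 5 sites on 5 mRNAs in replicate 1 and 4 sites on 3 mRNAs in replicate 2, against 0 in each control. Together 6 of the 10 mRNAs had a HITS-CLIP AEG1 site, 2 of them in both replicates (SAR1B and SEC24D), and SEC23A, SEC23B, SEC24A and SEC31A had none. A site in either replicate was found on 27.3% of the 8196 listed genes and on 34.4% of the 3425 genes with as many PAR-CLIP AEG1 sites as the members (6 to 22).

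**Figure D1:**
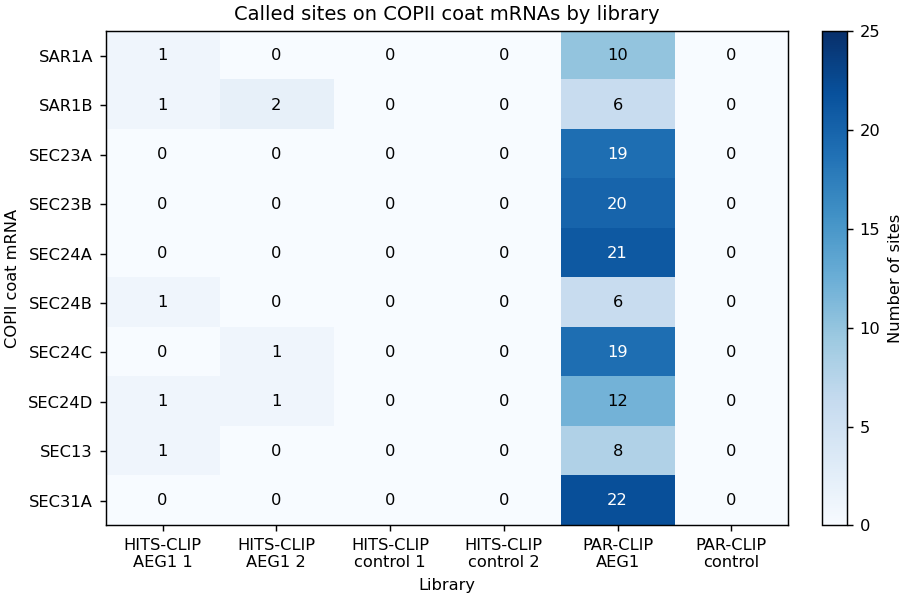
Number of called sites (colour and printed number) on each COPII coat mRNA (rows) in each of the 6 libraries (columns). PAR-CLIP AEG1 held 6 to 22 sites per mRNA, the HITS-CLIP AEG1 replicates 0 to 2, and the 3 controls none.

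Summed over the 10 mRNAs, sites averaged 4.5 ± 0.707 in HITS-CLIP AEG1 and 0 ± 0 in HITS-CLIP controls (SD, n = 2 each). The groups did not overlap, but the two-sided exact permutation test of 2 against 2 libraries gave p = 0.333, the smallest that this design allows. Without sites of 25 nt or less, the difference of 4.5 fell to 2.5 sites, and SAR1B alone kept sites in both replicates. The controls held few sites on any gene, so a COPII total of 0 there carries little information: COPII sites made up 0.0784% of HITS-CLIP AEG1 sites in replicate 1 (exact 95% binomial interval 0.0255 to 0.183) and 0.0708% in replicate 2 (0.0193 to 0.181), and the 0 sites in the controls have upper limits of 5.96% and 4.02%. In PAR-CLIP AEG1 the COPII share was 0.238% (0.201 to 0.280), against 0% with an upper limit of 3.003% in its control, from 1 library on each side and without a replicate check. The PAR-CLIP interval lies above both HITS-CLIP intervals. All of them cover counting error only. The methods also differ in UV wavelength and in list size, with 8001 genes in PAR-CLIP AEG1 and 1860 and 1701 in the HITS-CLIP AEG1 replicates.

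The 2 of 10 COPII mRNAs with sites in both HITS-CLIP AEG1 replicates compare with 16.1% of all 8196 listed genes, and with 21.4% of the 3425 genes that, like the COPII members, held 6 to 22 PAR-CLIP AEG1 sites. The same 2 were the members with more sites in each AEG1 replicate than in either control, against 15.5% of listed genes. These shares are near the background and are no result about the coat. In PAR-CLIP, 10 of 10 members had more sites in AEG1 than in the control, against 97.5% of listed genes and 39.7% of 20056 annotated protein-coding genes, many of which may not be transcribed in this line.

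In PAR-CLIP AEG1 the members had a median of 15.5 sites (range 6 to 22), against a median of 5 over the 8001 genes with sites. Their covered length had a median of 1468 nt, against 420 nt over all those genes. COPII mRNAs were also covered further along, with the last covered base at a median of nt 3492 against nt 2052, so the number of sites is not a level per length. As a share of the mRNA up to its last covered base, coverage had a median of 49.1% for the members (10.3 to 65.1%) against 22.6% over all genes with sites. By number of sites, SEC31A exceeded 94.7% of the genes with PAR-CLIP sites, while SEC24B and SAR1B each exceeded 52.4%. Sites of 300 nt or more made up 3 of the 143 COPII sites (2.10%), against 2.35% of all PAR-CLIP sites, and lay on SEC24C, SAR1A and SAR1B. These are descriptions of 1 library. No library measured mRNA abundance, so its part in these numbers was not tested.

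Both SAR1 GTPases, which start coat assembly, had their leading PAR-CLIP site in the 5′ part of the covered stretch, downstream of lower-scored sites. Scores were compared only within an mRNA, because each transcript was assumed to have its own scale. They are given below on the linear scale as multiples of the lowest-scored AEG1 site of the same mRNA. The multiples fell in steps, at or near whole numbers such as 1, 3, 4, 5 and 12 on SAR1B. On SEC24D they fell at values such as 1.06, 2.12, 3.18 and 4.24. Low multiples are therefore few steps apart, as are ratios between low scores. SAR1A (NM_020150) held 10 sites covering 1231 nt, led by a site at nt 298 to 628 with a score of 9.71, 42.4 times the lowest site. The next were nt 702 to 918 with 13.8 times and nt 117 to 285 with 9.54 times. The multiple of 42.4 was the highest among the 10 mRNAs.

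SAR1B (NM_016103) held 6 PAR-CLIP sites covering 712 nt. Its leading site, nt 406 to 715 with a score of 9.59, stood 23.0 times above the lowest, followed by nt 257 to 395 with 12 times and nt 145 to 246 with 5.00 times. The other 3 sites, at nt 741 to 796, nt 948 to 988 and nt 2744 to 2807, lay downstream with at most 3 times the lowest score. The centre of the leading site stood at 19.2% of the distance to the last covered base on SAR1A and at 19.97% on SAR1B. On SEC23A it stood nearer the 5′ end, at 10.0%.

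SAR1B was the COPII mRNA with most HITS-CLIP sites, all inside its leading PAR-CLIP site. Replicate 1 held nt 411 to 457 with a score of 7.38, and replicate 2 held nt 426 to 482 with 8.38 and nt 607 to 706 with 7.06; the controls held none. The first pair shared 32 nt, and the score in replicate 2 was 2.00 times that in replicate 1 on the linear scale. SAR1A held 1 HITS-CLIP site, nt 720 to 755 in replicate 1 with a score of 6.39, inside its second PAR-CLIP site by score, and none in replicate 2. SAR1A and SAR1B encode closely related proteins, as do SEC23A and SEC23B, and reads from a stretch of identical sequence could have been assigned to either copy, so the split between paralogs is uncertain.

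The SEC23 proteins, which switch on GTP hydrolysis by SAR1, had dense PAR-CLIP cover and no HITS-CLIP site in either replicate. SEC23A (NM_006364) held 19 PAR-CLIP sites covering 1894 nt, with the leading site at nt 229 to 510, 20.1 times the lowest. Further sites followed at nt 1392 to 1547 with 15.0 times and nt 1014 to 1173 with 14.0 times. SEC23B (NM_006363) held 20 sites covering 2052 nt, led by nt 1484 to 1573 with 20.1 times and nt 1633 to 1819 with 16.96 times. Up to its last covered base, nt 3154, 65.1% of the SEC23B mRNA was covered, the highest share in the coat, against 51.4% for SEC23A. The paralogs thus had nearly the same number of sites. SEC23A was led by a site in the 5′ part of the covered stretch and SEC23B by sites in its middle.

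**Figure D2:**
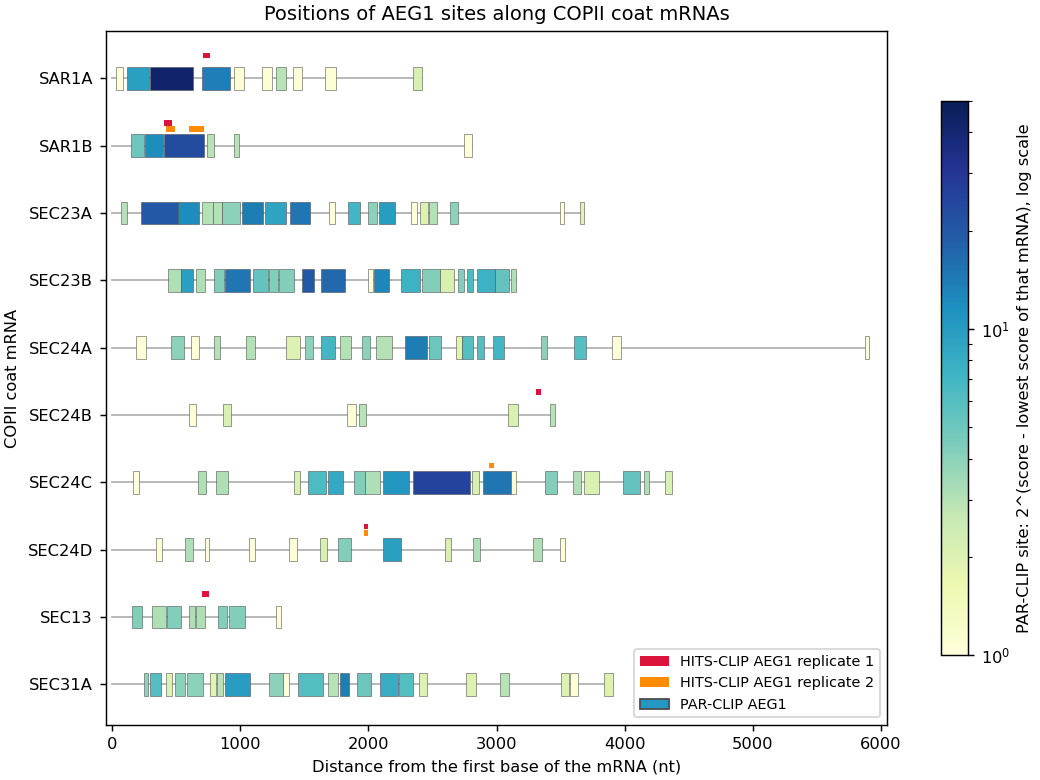
AEG1 sites along each COPII coat mRNA, with the distance from its first base in nt on the x axis. Boxes are PAR-CLIP AEG1 sites, coloured by 2 to the power of the score minus the lowest score of that mRNA (log scale), red and orange bars are sites of HITS-CLIP AEG1 replicates 1 and 2, and grey lines end at the last covered base. SAR1B HITS-CLIP sites lie over its leading PAR-CLIP site, while those of SEC24D and SEC24B lie in gaps.

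The 4 SEC24 paralogs, the cargo-binding subunits, ran from 6 to 21 PAR-CLIP sites, nearly the whole range of the coat. They fall into the pairs SEC24A with SEC24B and SEC24C with SEC24D by sequence, and within each pair the numbers of PAR-CLIP sites were unequal. SEC24A (NM_021982) held 21 sites covering 1705 nt, and SEC24B (NM_001042734) 6 sites covering 355 nt. SEC24C (NM_004922) held 19 sites covering 2176 nt, and SEC24D (NM_014822) 12 sites covering 770 nt. SEC24C therefore had the largest covered length in the coat and SEC24B the smallest.

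The leading SEC24C site, nt 2351 to 2789, was 439 nt wide, the widest on a COPII mRNA, and stood 25.4 times above the lowest. It was followed by nt 2898 to 3111 with 14.8 times and nt 2111 to 2314 with 10.6 times, with a lower-scored site at nt 2807 to 2859 between the first 2. SEC24A was led by nt 2283 to 2458 with 14.0 times, and its last site ended at nt 5906, the furthest position in the coat. SEC24D was led by nt 2112 to 2255 with 9.54 times. On SEC24B no site stood out, since 2 sites shared the highest score, 3 times the lowest.

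HITS-CLIP sites on the SEC24 mRNAs were very short. SEC24D carried a site of 18 nt at nt 1974 to 1991 in both replicates, with identical boundaries and scores of 6.60 and 7.60, so the value in replicate 2 was 2.00 times that in replicate 1. The replicate 1 score was the lowest of any AEG1 site on this mRNA, so the ratio of 2.00 rests on low steps of the scale. No PAR-CLIP site covered the 18 nt site: it lay 110 nt downstream of a site ending at nt 1863 and upstream of the leading site that starts at nt 2112. SEC24B carried 1 site of 22 nt, nt 3314 to 3335 in replicate 1 with a score of 7.19, in a gap 81 nt from the nearest PAR-CLIP site. SEC24C carried 1 of 21 nt, nt 2949 to 2969 in replicate 2 with a score of 6.36, inside its second PAR-CLIP site by score. SEC24A carried none.

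The outer cage subunits SEC13 and SEC31A held 8 and 22 PAR-CLIP sites, without a site as dominant as the leading ones of SAR1A, SAR1B or SEC24C. SEC13 (NM_183352), a beta-propeller protein that is also a nucleoporin and a member of the GATOR2 complex of nutrient sensing, had 648 nt covered of the 1316 nt up to its last covered base. The sites ranged little, from 2.50 to 4.58 in score, and 4 of them shared the highest value, 4.24 times the lowest. SEC13 also had 1 HITS-CLIP site, nt 710 to 751 in replicate 1 with a score of 3.50, which shared 18 nt with the PAR-CLIP site at nt 656 to 727, and none in replicate 2. SEC31A (NM_016211), which forms the rods of the cage together with SEC13, had the most PAR-CLIP sites in the coat, covering 1915 nt. It was led by nt 1779 to 1851 with 14.0 times and nt 883 to 1075 with 10.0 times, and it had no HITS-CLIP site.

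Across the coat, the 4 mRNAs without a HITS-CLIP site held 19 to 22 PAR-CLIP sites, and the 6 with one held 6 to 19. In the whole series, a HITS-CLIP site in either replicate was found on 49.2% of the 262 genes with 19 to 22 PAR-CLIP sites and on 33.7% of the 3248 genes with 6 to 19. The order within the coat ran the other way and, with 10 genes, is given as a description alone.

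**Figure D3:**
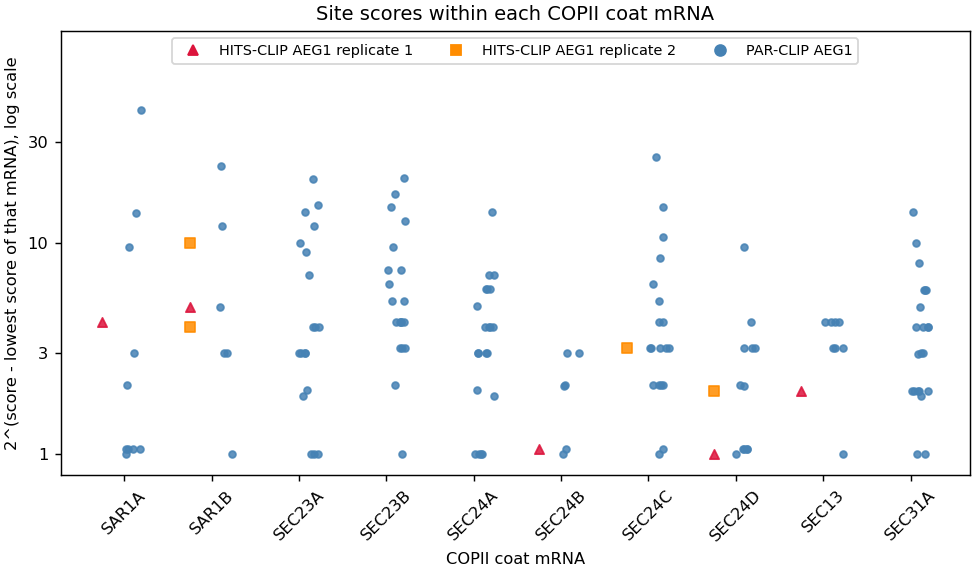
Score of each AEG1 site on the COPII coat mRNAs as 2 to the power of the score minus the lowest score of that mRNA (log scale). Blue points are PAR-CLIP AEG1 sites, spread sideways for clarity, and triangles and squares are HITS-CLIP AEG1 replicates 1 and 2. The HITS-CLIP values lie between 1.00 and 10.00, and the highest PAR-CLIP site of each mRNA between 3 and 42.4.

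Of the 9 HITS-CLIP AEG1 sites on COPII mRNAs, 4 (44.4%, exact 95% binomial interval 13.7 to 78.8) were 25 nt wide or less, against 6.80% and 7.01% of all sites in replicates 1 and 2 and 65.0% and 67.8% of sites in their controls. The short ones were those of SEC24B, SEC24C and both of SEC24D. The interval lies above the shares of all AEG1 sites and includes those of the controls, but it covers counting error only, and SEC24D gives 2 of the 4 short sites. Over the whole series, 43.3% and 44.2% of short HITS-CLIP AEG1 sites overlapped a PAR-CLIP AEG1 site, against 93.7% and 93.9% of longer ones. On COPII mRNAs, 1 of the 4 short sites overlapped one, against 5 of the 5 longer ones. Identical boundaries in both replicates, as on SEC24D, were found for 82 short sites (18.9% and 20.7%) against 46 longer sites (0.774% and 0.875%).

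Positions repeated between the HITS-CLIP AEG1 replicates for 2 of the 5 COPII sites of replicate 1 (40%, exact 95% binomial interval 5.27 to 85.3) with an overlap of at least 1 nt, against 63.2% of all replicate 1 sites. Of the 9 sites in both replicates, 6 (66.7%, 29.9 to 92.5) overlapped a PAR-CLIP AEG1 site, against 94.4% of the 9137 HITS-CLIP AEG1 sites on mRNAs with at least 6 PAR-CLIP sites. Of the 9, 3 (33.3%) met the highest-scoring PAR-CLIP site of their mRNA, against 31.5% of those 9137, and 5 (55.6%) met 1 of the 2 highest, against 47.7%. All 3 lay in 1 PAR-CLIP site of SAR1B, and 2 of them overlapped between the replicates. The share of 33.3% therefore rests on 1 mRNA. The 3 COPII sites outside PAR-CLIP cover were the short sites of SEC24B and SEC24D, with SEC24D counted once per replicate. Over all mRNAs, 90.2% and 90.4% of HITS-CLIP AEG1 sites overlapped a PAR-CLIP site, which the interval of the COPII share includes. It lies below the 94.4% on mRNAs with at least 6 PAR-CLIP sites, a number that every member reached. However, the interval counts positions that repeat between replicates, on SEC24D and SAR1B, as separate sites. It is thus too narrow to set the COPII share apart from 94.4%. It covers counting error only.

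Genes that act beside the coat in traffic between ER and Golgi carried HITS-CLIP AEG1 sites on many of their membrane members. The gene lists were chosen with earlier results of these data known. For comparison, 16.1% of all listed genes had sites in both replicates, and 21.4% of those with 6 to 22 PAR-CLIP AEG1 sites did. Of 10 membrane cargo receptors between ER and Golgi, 7 had sites in both replicates. They were led by ERGIC3 with 8 and 7 sites, LMAN1, the lectin that carries coagulation factors, with 9 and 6, and BCAP31 with 6 and 7. Another list mixed membrane regulators of COPII with other membrane proteins of exit sites, and is called membrane regulators below. Of its 10 genes, 5 had sites in both. Among them were the p24 protein TMED10 with 3 and 4, MIA2, a cargo receptor subunit for bulky cargo, with 3 and 2, and TMED2 with 2 and 2. CNIH1 and PREB, named after their values were seen, had 2 and 3 sites and 0 and 0 sites. No control held a site on any of these 20 mRNAs. The HITS-CLIP controls listed only 49 and 78 genes and the PAR-CLIP control 66, so this absence carries little information.

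The cytosolic proteins of this and of other coats were counted in the same way, beside the same shares of 16.1% and 21.4%. Of 10 cytosolic COPII regulators and exit site proteins, 1 had sites in both replicates, SEC23IP with 1 and 1. This list also counts SEC31B, a paralog of SEC31A, which had no site in any library. The tether USO1 had none, and SEC16A, the exit site scaffold, had 0 and 1. Of 10 COPI coat genes, whose coat returns proteins to the ER, 3 had sites in both, COPA, COPG1 and COPE with 1 and 1 each. Of 10 clathrin and adaptor genes, 2 did, CLTC, the clathrin heavy chain, with 12 and 7, and AP3B1 with 1 and 1. AP2B1 had none. None of 10 partners of SEC13 in the nuclear pore and GATOR2 had a HITS-CLIP site, among them AHCTF1, NUP160 and NUP85, which held 26, 24 and 12 PAR-CLIP sites.

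In PAR-CLIP AEG1 nearly all genes of every list had sites. The median number of sites was 15.5 for the COPII coat, 5.5 for its cytosolic regulators, 7 for its membrane regulators, 8.5 for the cargo receptors, 14.5 for COPI, 19 for clathrin and adaptors and 8.5 for the SEC13 partners. Sites were present on 10, 9, 9, 10, 9, 10 and 10 of 10 genes in the same order, and on 8001 of the 8196 listed genes. In HITS-CLIP the COPII, COPI and clathrin coats thus had sites in both replicates on 2, 3 and 2 of 10 genes, against 16.1% of listed genes. With a site in either replicate, the counts were 6 of 10 for the COPII coat, 2 and 6 for its cytosolic and membrane regulators, 8 for the cargo receptors, 4 each for COPI and for clathrin and adaptors, and 0 for the SEC13 partners. The share for either replicate was 27.3% of listed genes, and 34.4% of those with 6 to 22 PAR-CLIP AEG1 sites. The lists were not tested against each other, and they differ in mRNA length.

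**Figure D4:**
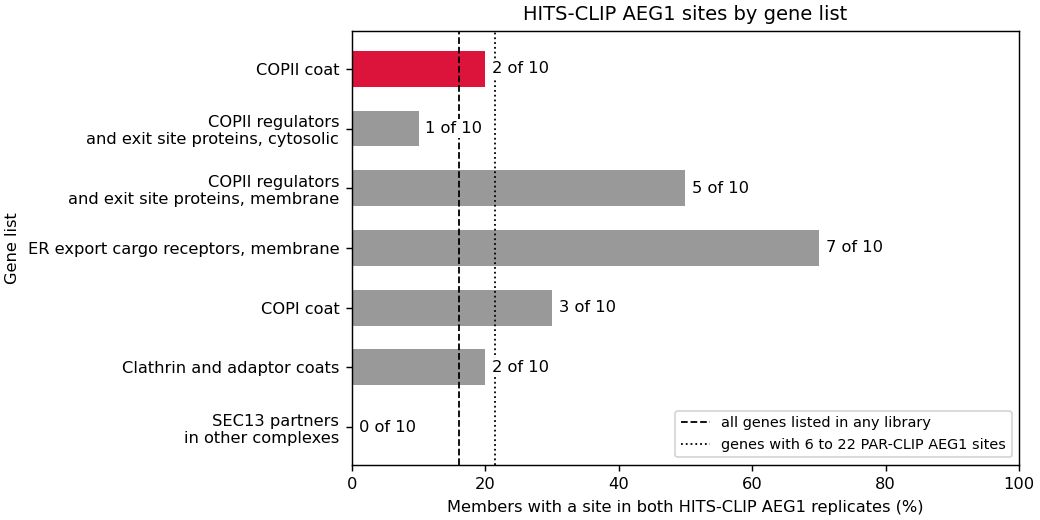
Share of each list of 10 genes with a site in both HITS-CLIP AEG1 replicates, in percent, with the count beside each bar. Lines mark the share over all listed genes (16.1%, dashed) and over genes with 6 to 22 PAR-CLIP AEG1 sites (21.4%, dotted); the COPII coat has 2 of 10 and the membrane cargo receptors 7 of 10.

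SEC24D, the member with most PAR-CLIP sites among those with sites in both HITS-CLIP replicates, had a pattern of covered length over the 6 libraries closest to those of SMO, the membrane transducer of Hedgehog signals, POC1B-GALNT4, a readthrough gene, and FRYL. The Euclidean distances on log2(covered nt + 1) were 0.12, 0.19 and 0.32. SEC24D covered 18 and 18 nt in HITS-CLIP AEG1, 0 and 0 in its controls, 770 in PAR-CLIP AEG1 and 0 in its control. SMO covered 19, 19 and 738 nt in the same AEG1 libraries, POC1B-GALNT4 20, 19 and 829 nt, and FRYL 20, 22 and 800 nt, with 0 in every control. The 3 therefore also carried 1 HITS-CLIP site of 22 nt or less per replicate.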

How the data were processed

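RNA bound to HA-tagged AEG1 was measured in 6 libraries, sequenced as 50 nt single reads per the labels' protocols. The submitters' processing notes list Bowtie, with no version, role or reference. How sites were called, at which threshold and with what use of the controls is not stated there. The authors deposited a list of called sites per library with a log2 score per site, whose normalization is not given. Of 11744 HITS-CLIP AEG1 sites on mRNAs with PAR-CLIP AEG1 sites, 17.1% had a score equal within 1e-09 to a PAR-CLIP score on the same mRNA. The rate against other mRNAs was not computed, so a scale per transcript was assumed and not tested. Starts were taken as 0-based and printed 1-based. Positions are those on the mRNAs; genome coordinates and coding boundaries were not analysed here.

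The 8204 transcripts were named through a RefSeq table (GRCh38.p14), 8146 by accession, 30 by symbol and 21 by synonym, and 7 kept the file's symbol. With sites and no read counts, no count model was run. Overlap meant at least 1 nt. Shares carry exact Clopper-Pearson intervals, and the replicated total an exact permutation test (scipy 1.17.1). Overlap and coverage code was tested on simulated data. Named genes are all members, 3 per comparison list by lowest HITS-CLIP AEG1 count over the replicates (ties by PAR-CLIP sites), and the 3 nearest to 1 member. Members and lists were chosen with earlier results of these data known.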

Additional observations from a re-analysis of the deposited data

How the results depend on the processing

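The alternatives were without sites of 25 nt or less, with sites above the median score of their library, with stricter overlap or site numbers, with covered length in place of sites, and without single replicates. Of 17 values of the member counts and overlap shares, 13 stayed within the counting error or within 1.5 times the main count, and 4 moved. Without short sites, the members with sites in both HITS-CLIP AEG1 replicates fell to 1 (SAR1B), and the share overlapping PAR-CLIP AEG1 was 100% of 5 sites. With at least 2 sites in each replicate, 0 members were left. With a single replicate, 3 to 5 members had sites. The AEG1 minus control difference in summed sites was 4.5, fell to 2.5 without short sites and to 3.5 with sites above the median score, and was 4 to 5 without single libraries. It was 4.5 with replicate numbers as a block (replicate block, exact sign-flip p = 0.500, the smallest possible), and the labels do not say that numbers pair libraries. Neither design can pass 0.05, so the p-values say nothing about stability. Read depth is unknown, so the absence of a called site is not absence of binding.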
